A study of Mus musculus with 12 samples.

Results

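The 3 samples described here are mouse eggs held at metaphase II of meiosis (MII eggs) that had been injected with a control siRNA, 3 of the 12 samples of the series. They were chosen by their label, and no measured value is part of the rule. The series asked how knockdown of Dcp1a, a cofactor of mRNA decapping, and Dcp2, the decapping enzyme, during oocyte maturation changes the egg's mRNA, and its other 9 samples are 3 each with siRNA against Dcp1a, against Dcp2 and against both. All 12 came from CF1 mice. Full-grown oocytes still in prophase of the first meiotic division were injected, held for 20 h in CZB medium with milrinone, which keeps them from resuming meiosis, and then matured without it for 18 h. Control eggs therefore share injection, an siRNA and culture with the knockdown eggs, and no uninjected eggs were part of the samples analysed here. Each sample pooled 30 eggs and is described as an independent biological replicate. RNA was amplified, labelled and hybridised to an Affymetrix array, with 1 array per pool. The control siRNA's target was not given in the sources used here. No difference between conditions is tested below, since a single condition is described.

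A full-grown mouse oocyte has stopped transcription, so the egg lives on mRNA that was made and stored during growth. Many stored messages carry short poly(A) tails and are not translated until cytoplasmic polyadenylation recruits them, while others are deadenylated, decapped and degraded as meiosis proceeds. The mature egg is held at metaphase by high kinase activity until sperm-triggered calcium waves release it. Proteins translated from the stored messages carry the embryo until its own genome is switched on. 

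Values are the base 2 logarithm (log2) of the deposited intensity, and 3 values given for a gene are those of replicates 1, 2 and 3 in that order. A gene is shown by its brightest probe set, the short-oligonucleotide set on the array that reads 1 transcript region. The 45037 probe sets other than array controls held 34945 with exactly 1 gene symbol, which gave 18193 genes. A gene counted as above the floor where its log2 value exceeded 5, an intensity of 32 units, on all 3 arrays, and as bright where it exceeded 10, or 1024 units, on all 3. Probe sets differ in how strongly they bind their target, so an order by signal is not an order by molecule number, and a gene at the floor is not shown to be absent. In pooled eggs, fewer cells with a transcript and less of it per cell cannot be told apart.

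The processing brings the arrays to a common distribution, which largely sets how many genes pass a cut-off. On replicates 1, 2 and 3, 6652, 6549 and 6748 genes were above log2 5 and 2076, 1930 and 2057 above log2 10. Across the 6331 genes above log2 5 on all 3 arrays, Pearson's r was 0.955 between replicates 1 and 2, 0.944 between 1 and 3 and 0.972 between 2 and 3. These correlations are across genes, which are not independent replicates. Replicate 1 was the least like the other two. Its probe sets for 18S ribosomal RNA were also the highest, at 14.22 for the 5′ set against 12.75 and 12.14 on replicates 2 and 3. The 3′ probe set for beta-actin read 10.23, 8.60 and 8.84 while its 5′ set was at 2.32 on every array, so probes near the 3′ end carried the signal there. Both siRNA targets were lower in the groups injected against them. Dcp1a lay between 12.39 and 13.60 in control eggs, with 9.02 to 10.27 over the Dcp1a and double knockdowns, and Dcp2 lay between 4.93 and 6.35 in control eggs, with 2.29 to 2.32 over the Dcp2 and double knockdowns. The probe sets are those brightest in control eggs. Dcp2 was near the floor of log2 5 there, so the size of its fall cannot be read.

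Of the 18193 genes, 6331 (34.8%) were above the floor on all 3 arrays and 1717 (9.44%) were bright on all 3. At the other end, 11217 genes (61.7%) were at or under log2 5 on all 3, and 6694 (36.8%) were at or under 5 intensity units on all 3, which is the lowest level the processing gives. Only 645 genes (3.55%) crossed log2 5 on some arrays and not on others. On a log scale of rank, the signal fell slowly at first and steeply later. The first gene averaged 16.50 (an arithmetic mean intensity of 92515 units), the tenth 15.50, the 100th 14.31, the 1000th 11.51 and the 3000th 8.85. The 100 brightest genes held 24.2% ± 0.937 (SD, n = 3) of the summed signal, and the 1000 brightest held 75.1% ± 1.07.

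**Figure D1:**
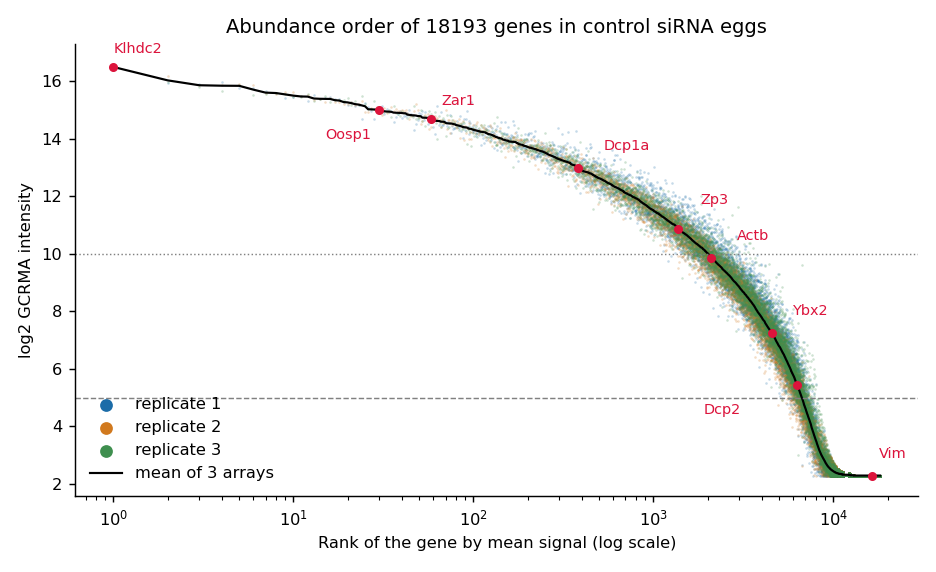
The log2 intensity of 18193 genes (y axis) is plotted against their rank by mean signal (x axis, log scale), with a point per replicate, the mean as a line, named genes in red, and dotted and dashed lines at log2 10 and log2 5. The mean falls from 16.50 for Klhdc2 to the flat floor near 2.3 that holds genes such as Vim.

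The brightest genes were a mixture of oocyte-specific factors and of enzymes and regulators that many cells use. Klhdc2, the substrate receptor of an E3 ubiquitin ligase that reads the C-terminal ends of proteins, led with 16.39, 16.58 and 16.52. Pabpn1, the nuclear poly(A)-binding protein, read 15.93, 16.17 and 15.99. Rbbp7, a histone-binding subunit of deacetylase and Polycomb complexes, read 15.90, 15.88 and 15.80. Their ranges over the pools were 0.19, 0.24 and 0.10. Metabolism was represented by Ldhb, the heart-type lactate dehydrogenase subunit (15.75, 15.90 and 15.86), by Uqcrc2, a core subunit of respiratory complex III (15.75, 15.85 and 15.51), and by Hmgcs1 of the cholesterol pathway (15.18, 15.20 and 15.41).

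Among genes listed for the oocyte, not all of them specific to it, the highest was Bcl2l10. This ovary-enriched member of the BCL2 family had 15.66, 15.58 and 15.57. Spin1, the histone reader spindlin first known as an abundant maternal protein, was nearly level with it at 15.61, 15.57 and 15.59. Obox2, an oocyte homeobox gene, had 15.54, 15.36 and 15.30. Nlrp4a, of the oocyte-rich NLRP family, had 15.18, 15.21 and 15.17, and Oosp1, an oocyte-secreted protein, had 15.05, 14.93 and 14.99. The ranges of these 5 genes ran from 0.03 to 0.23, so their order among each other is not resolved beyond the replicates where means lie that close.

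A deadenylase of maternal mRNA and its adaptor stood in the same group. Cnot7, a catalytic deadenylase of the CCR4-NOT complex, had 15.37, 15.28 and 15.34. Btg4, the oocyte adaptor that brings that complex to maternal messages, had 15.00, 15.10 and 14.94. Their ranges over the pools were 0.09 and 0.16. The other named genes among the 30 brightest included Oaz1 (the antizyme that limits polyamine synthesis), Trp53bp1 (a DNA-break response factor), Ggct (glutathione turnover), Ywhab (a 14-3-3 adaptor), Hsp90aa1 (a chaperone), Tsc22d1 (a leucine-zipper regulator), Ube2d2a (a ubiquitin-conjugating enzyme), Morf4l2 (a histone acetyltransferase subunit), Cks1b (a partner of cyclin-dependent kinases), Tm9sf2, Tmem109, Smim14 and Fam8a1 (membrane proteins). Their means lay between 15.02 and 15.54. Cks1b and Morf4l2 varied most, with 14.68, 15.32 and 15.48 for Cks1b and 14.68, 15.04 and 15.33 for Morf4l2, lowest on replicate 1 in both. Of the 30, 3 had clone-style symbols.

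**Figure D2:**
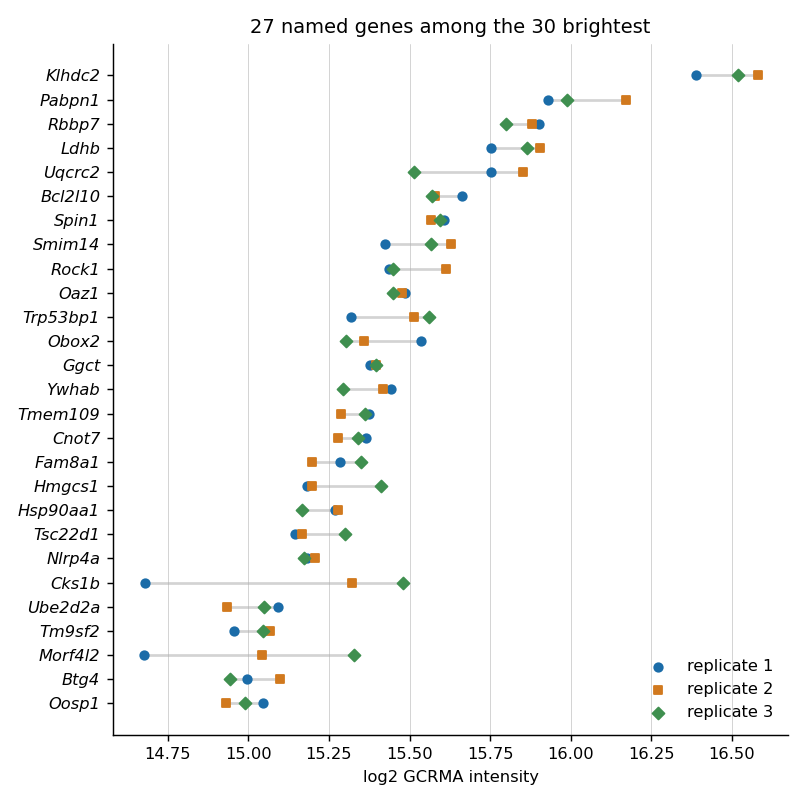
Log2 intensity (x axis) of the 27 genes with a descriptive symbol among the 30 brightest, 1 row each in order of mean, with a marker per replicate and a grey line over their range. Cks1b and Morf4l2 have the widest spans, and most other genes lie within 0.3 on the 3 arrays.

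The level of a gene depended on which probe set read it. Klhdc2 had 4 probe sets, with means of 16.50, 11.44, 11.42 and 2.29. Ldhb was more even, with 4 probe sets at 15.84, 14.77, 13.92 and 13.32. Of the 24 genes with several probe sets among the 30 brightest, 11 had at least 1 at the floor, and over all bright genes this was 785 of 1326 (59.2%). Probe sets that can bind more than 1 transcript, with the suffix x_at or s_at, stood for many of the 100 brightest genes, 25 with x_at and 20 with s_at. Obox2 was read by x_at sets alone, so family members may share its signal. Taking the median over a gene's probe sets left 43 of the 100 brightest genes in that group and 732 genes bright, against 1717.

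The 250 bases before the annotated start were set beside the levels, since oocyte-specific families and broadly used genes reach the same signal there. Of the 18193 genes, 11720 had exactly 1 promoter in the RefSeq table (build GRCm38.p6). The median number of CG dinucleotides was 19 in the 1139 bright genes, 17 in the 2948 genes above log2 5 but not bright, and 9 in the 7198 genes at or under log2 5. The bright members of the oocyte-specific families differed from the other bright genes. In 17 of them the median was 1, and 15 of the 17 (88.2%) held at most 5 CG, against 9.22% of bright genes, 27.5% of all 11720 genes and 50.8% of all 22862 single promoters in the table. Several of the 17 are members of the same gene family, so they are not independent, and no test was made. Promoters of 4 genes of these families and of the 3 brightest genes are shown for that contrast. Each is the 150 bases that end at the base before the start, written 5′ to 3′ in the direction of the gene, with CG in capitals.
Obox2 (chr7:15388701-15388850, plus strand): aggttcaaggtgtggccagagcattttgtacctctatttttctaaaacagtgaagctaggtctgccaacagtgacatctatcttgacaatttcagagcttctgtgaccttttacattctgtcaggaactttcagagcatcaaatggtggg
Btg4 (chr9:51115851-51116000, plus strand): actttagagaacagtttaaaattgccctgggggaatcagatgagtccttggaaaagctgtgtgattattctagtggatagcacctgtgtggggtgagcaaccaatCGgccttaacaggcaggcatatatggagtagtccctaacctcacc
Obox5 (chr7:15750220-15750369, plus strand): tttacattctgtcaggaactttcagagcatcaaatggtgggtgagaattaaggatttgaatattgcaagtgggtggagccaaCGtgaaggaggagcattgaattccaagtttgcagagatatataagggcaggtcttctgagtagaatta
Fbxw24 (chr9:109626060-109626209, minus strand): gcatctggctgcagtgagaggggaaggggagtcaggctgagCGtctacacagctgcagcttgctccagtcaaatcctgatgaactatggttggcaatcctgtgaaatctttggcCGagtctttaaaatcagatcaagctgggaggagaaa
Klhdc2 (chr12:69296531-69296680, plus strand): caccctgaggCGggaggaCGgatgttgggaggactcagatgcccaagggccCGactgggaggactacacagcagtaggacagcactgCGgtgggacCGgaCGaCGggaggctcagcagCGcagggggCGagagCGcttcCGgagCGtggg
Pabpn1 (chr14:54893993-54894142, plus strand): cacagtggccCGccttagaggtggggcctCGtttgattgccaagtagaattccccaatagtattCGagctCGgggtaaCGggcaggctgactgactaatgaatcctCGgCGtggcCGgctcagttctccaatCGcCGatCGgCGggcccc
Rbbp7 (chrX:162760222-162760371, plus strand): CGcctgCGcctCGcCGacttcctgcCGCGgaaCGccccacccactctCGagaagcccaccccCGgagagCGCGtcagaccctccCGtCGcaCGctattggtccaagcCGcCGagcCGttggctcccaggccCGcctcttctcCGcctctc
The stretches hold 0, 1, 1 and 2 CG for Obox2, Btg4, Obox5 and Fbxw24, and 12, 12 and 19 for Klhdc2, Pabpn1 and Rbbp7. Obox2 and Obox5, of 1 family and both on chromosome 7, share a run of 41 identical bases at different distances from the start. This run closes the Obox2 stretch and opens the Obox5 stretch, so it may reach beyond what is shown. Any other pair shares a run of at most 9. Fbxw24, an F-box gene of the oocyte-rich Fbxw cluster, was chosen for display after its value was seen.

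Beside the CG count, 2 short motifs were searched in the same 250 bases. CANNTG holds the E-box letters that bind basic helix-loop-helix factors and that read the same on both strands. It was found at least once in 16 of the 17 oocyte-family promoters (94.1%), against 56% of bright genes, 64.6% of genes at or under log2 5 and 61% of all genes. In bright members of the other lists summarised, it ran from 2 of 8 for chaperones (25%) to 7 of 8 for maternal-effect genes (87.5%). TATAAA, searched on the gene's own strand, was found in 2 of the 17, those of Rfpl4 and Oog3, against 3.78% of bright genes and 6.19% of all genes. For TATAAA the other bright lists ran from 0 of 8 for maternal-effect genes to 3 of 9 for proteasome genes, and spindle genes also had 2 of 17. In the sequences shown, Obox2 and Fbxw24 have 3 CANNTG each in the 250 bases, Btg4, Obox5 and Klhdc2 have 2, and Pabpn1 and Rbbp7 have 0. A match marks letters and not a bound site. The motif shares were not matched for CG number or base composition, and several of the 17 are members of the same gene family. Bright maternal-effect genes had a median of 5.5 CG in 8 promoters, while bright genes of mRNA storage had 25 in 12 and those of chromatin 22 in 17.

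**Figure D3:**
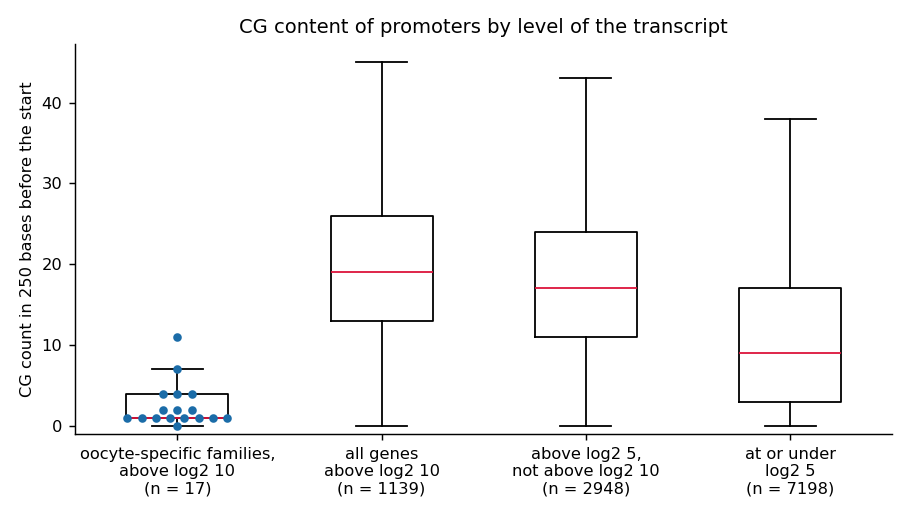
Number of CG dinucleotides in the 250 bases before the start (y axis) for bright genes of oocyte-specific families, all bright genes (these families included), genes above log2 5 but not bright, and genes at or under log2 5. Boxes span the quartiles with the median in red, whiskers reach 1.5 times the box, and the points are the 17 oocyte-family genes, most of them at 1 or 2 against medians of 19, 17 and 9 in the other groups.

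Gene lists were read for level by the number of members above log2 5 and bright on all 3 arrays, beside 34.8% and 9.44% over all genes. Of 25 lists, 21 had a larger share above log2 5 than all genes. The maternal-effect list, genes whose loss in the mother arrests the embryo and their close family, was the highest, with 21 of 22 members above the floor, 15 bright and a median of 12.62, against 2.71 over all genes. Zbed3, a partner of the subcortical maternal complex, read 14.88, 15.07 and 14.92, and Zar1, an RNA-binding factor that holds maternal messages, read 14.80, 14.40 and 14.85. Nlrp14 had 14.43, 14.34 and 14.84, and Ooep, a subunit of the subcortical complex, had 14.13, 13.70 and 13.72. The lowest members were Zfp57 (6.69, 7.25 and 7.80), Khdc3 (6.62, 6.91 and 7.62) and Zfp36l2 (4.22, 4.56 and 5.45), which alone crossed the floor on some arrays only.

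Oocyte-specific families had 30 of 34 members above the floor and 22 bright, with a median of 12.56. Obox5 read 14.90, 14.88 and 14.73, and Gdf9, the growth factor by which the oocyte instructs its follicle cells, read 14.79, 14.33 and 14.96. The 4 members at the floor were Obox6, Rfpl4b and the transcription factors Sohlh1 and Figla, which act in early oocytes. Figla had 2.49, 2.54 and 3.86. Egg coat and surface genes had 10 of 12 above the floor. The zona pellucida genes were bright or nearly so, at 10.47, 9.20 and 11.12 for Zp1, 10.70, 9.93 and 11.76 for Zp2, and 11.21, 9.52 and 11.84 for Zp3, and replicate 2 was the lowest for each. Astl, the protease ovastacin that hardens the coat after fertilisation, read 11.28, 10.37 and 10.77. Cd9, which the egg membrane needs for sperm fusion, read only 4.84, 4.90 and 6.40, and Cd81 5.33, 5.33 and 4.88.

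Most of the genes listed for the second metaphase were above the floor. In the spindle and kinetochore list 42 of 50 members were above the floor and 21 bright, with a median of 10.21. Cdca8, borealin of the chromosomal passenger complex, read 14.80, 14.97 and 14.88. Pttg1, the securin that guards sister cohesion until anaphase, read 14.79, 14.99 and 14.87, and the checkpoint kinase Bub1b 14.81, 14.02 and 14.52. Rec8 and Stag3, the meiotic cohesin subunits loaded before birth, were at 2.29 on every array. Among regulators of the meiotic kinases 24 of 36 were above the floor and 14 bright. Cks2 had 14.36, 14.63 and 14.51, Cdc20, the activator of the anaphase-promoting complex, had 14.53, 14.42 and 14.49, and Wee2, the oocyte form of the inhibitory kinase, averaged 14.03 with an SD of 0.04. These 3 were alike on all pools. Skp1 and Cul1, the frame of SCF ubiquitin ligases, averaged 13.21 and 13.95. The cyclin Ccna1, the phosphatase Cdc25c and the adenylate cyclase Adcy3 were at the floor. The cyclin-dependent kinase Cdk1 itself read only 3.26, 3.31 and 5.43, by its 1 probe set. Bub1 of the spindle list read 4.35, 3.60 and 6.23.

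Genes that store maternal mRNA had 34 of 40 members above the floor and 17 bright, with a median of 9.92. The RNA-granule proteins Lsm14b (14.84, 14.19 and 14.56) and Lsm14a (14.13, 14.25 and 14.39), the Y-box protein Ybx1 (14.22, 13.98 and 13.40), the RNA-binding Elavl2 (mean 12.85) and the cap-binding Eif4e (12.33, 12.82 and 12.65) followed Zar1. In the mRNA decay list 42 of 62 were above the floor, 20 were bright and 11 were at it, with a median of 8.39. After Cnot7 and Btg4 came the deadenylase Cnot6l (14.16, 13.48 and 13.51), Pan3 of the PAN2-PAN3 deadenylase (13.65, 13.18 and 13.25), Dcp1a and the decapping scaffold Edc4 (12.80, 12.45 and 12.50). Dcp1a ranked 382 of 18193 with 13.60, 12.39 and 12.98. Dcp2, the enzyme it serves, ranked 6302 with 5.01, 4.93 and 6.35 and crossed the floor on 2 arrays. Both numbers come from separate probe sets and give no ratio of the transcripts. The nuclease Dis3, the decapping enhancer Edc3 and the uridylyl transferase Tut4 were at 2.29.

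Chromatin regulators had 39 of 47 above the floor and 22 bright. Dnmt1, the maintenance DNA methyltransferase, read 13.69, 14.07 and 14.54, and the 3 Polycomb genes Bmi1, Suz12 and Ezh2 averaged 13.88, 13.50 and 13.49. Dppa3, which protects the maternal genome's methylation, read 13.54, 13.58 and 13.76, beside 13.45, 13.06 and 13.58 for Uhrf1, the partner of Dnmt1. The histone list, with 20 of 24 above the floor, was led by Slbp, the stem-loop binding protein of histone mRNA (13.88, 13.94 and 14.26), and H1f8, the oocyte linker histone, read 14.06, 13.35 and 13.57. Npm1, Nap1l1, Asf1a and Anp32b, which chaperone histones, averaged 13.72, 13.33, 12.63 and 12.29. H3f3a, H3f3b and Chaf1b were not above 2.43 on any array. H3f3a and H3f3b were each read by 1 probe set, and probe sets with several symbols were left out, so their absence is not shown. DNA repair had 27 of 39 above the floor, with the checkpoint kinase Chek1 at 14.25, 14.30 and 14.25 and the single-strand binding subunit Rpa1 at 14.24, 14.30 and 14.21, against 2.32 on each array for Chek2.

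Lists of the cell's basic machinery were also above the share of all genes. Translation factors had 26 of 33 above it and a median of 9.07, led by Eif2s2 (14.51, 15.22 and 14.69), Eif4g2 (14.36, 14.56 and 14.59) and Eif3e (14.37, 14.69 and 14.31). Of 46 cytosolic ribosomal protein genes with a probe set of 1 symbol, out of 82 listed, 35 were above the floor, 10 were bright and 10 were at it. They ran from Rps28 (13.82, 13.94 and 14.19) and Rpl22 (mean 12.43) to Rpl12, Rps16 and Rps27 at 2.29. These levels span nearly the whole scale of the arrays. Oxidative phosphorylation had 55 of 73 above the floor and a median of 7.32, with Cox5a at 14.77, 15.04 and 14.90 behind Uqcrc2, and Uqcrc1, Ndufb4 and Cox7c at 2.29. Mitochondrial ribosomal proteins had 50 of 77 above it, Mrpl9 being the highest with 13.58, 13.63 and 13.17.

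The proteasome and ubiquitin list had 33 of 41 above the floor. Ube2d3 read 13.84, 13.97 and 13.88, and Psmb3, a core subunit, 13.61, 13.82 and 13.27, while the immunoproteasome subunits Psmb8 and Psmb9 were not above 2.32. Chaperones and redox enzymes had 34 of 42 above it, with Hsp90b1 at 12.80, 12.99 and 12.53 and the mitochondrial superoxide dismutase Sod2 at 12.09, 12.89 and 12.65. Cytoskeletal and housekeeping genes had 24 of 32, from the actin-branching subunit Arpc2 (14.16, 13.98 and 13.68) to the intermediate filament gene Vim at 2.29.

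Glycolysis and pyruvate use had a lower median, 4.30, with 16 of 36 above the floor and 18 at it. Its share above the floor, 44.4%, was still over the 34.8% of all genes, and Ldhb was the fifth brightest gene of all. Gapdh is not among the 36, and its 3′ control probe set read 11.48, 10.26 and 10.42. Pdk1, the kinase that restrains pyruvate dehydrogenase, read 12.07, 11.98 and 12.12, and Pgk1 read 11.37, 11.85 and 11.78. The aldolase Aldoc, the pyruvate dehydrogenase kinase Pdk2 and the monocarboxylate transporter Slc16a3 were at 2.29. Calcium and activation genes had 10 of 22 above the floor. Itpr2, an inositol trisphosphate receptor, read 13.65, 13.36 and 12.79, and Atp2a2, the calcium pump of the endoplasmic reticulum, 13.50, 12.97 and 13.19. Plcz1, the phospholipase brought in by sperm, was at 2.29. Small-RNA genes had 11 of 27 above the floor and 2 bright, Gtsf1 (10.63, 10.64 and 11.85) and Dicer1 (10.55, 10.06 and 10.11).

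Genes known from the activation of the embryo's genome had 11 of 27 above the floor and a median of 3.81. Yap1 (13.96, 13.32 and 13.77), the transcription coactivator, and Sall4 (13.23, 12.59 and 13.28) were bright, and Pou5f1 read 10.88, 9.36 and 9.61. Nanog, Zfp352 and Sall1 were at 2.29 on every array. Interferon-response genes had 5 of 23 above the floor and none bright, and 2 of them were above log2 6 on all 3 arrays. The highest was Irf1 with 7.97, 7.62 and 7.91, and Ifit1, Ifit3 and Oasl2 were at 2.29.

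Markers of the cells that surround the oocyte were mostly at the floor. Of 25 cumulus and granulosa markers, 2 were above it on all 3 arrays and 22 were at it on all 3. Fshr, Amh and Amhr2 read 2.29 on every array. The 2 above were Nr5a2 (11.06, 10.74 and 10.55) and Gata4 (8.03, 7.96 and 7.56). All 25 markers summed to 2534, 2118 and 1858 intensity units. The other 23 summed to 142.6, 162.6 and 169.8 units, which is low by construction, since the members above the floor were left out. Of 24 markers of blood, vessel and other ovarian cells, 1 was above the floor, the endothelial receptor Kdr at 5.60, 5.80 and 5.96, and the haemoglobin gene Hba-a1 and the collagens Col1a1 and Col3a1 were at 2.29. Of 31 markers of other tissues, 3 were above the floor. Cpa1, a pancreatic carboxypeptidase, was bright at 14.20, 13.39 and 13.46 by its 1 probe set, and Mbp and Myh2 averaged 7.70 and 6.08. All 31 summed to 19200, 11280 and 11840 units. Without these 3 genes the list summed to 176.6, 178.9 and 186.5 units, again low by construction. The egg markers Zp1, Zp2, Zp3, Gdf9, H1f8 (also called H1foo), Mos, Oosp1, Nlrp5, Zar1, Dppa3 and Bmp15 were all above the floor on all 3 arrays.

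**Figure D4:**
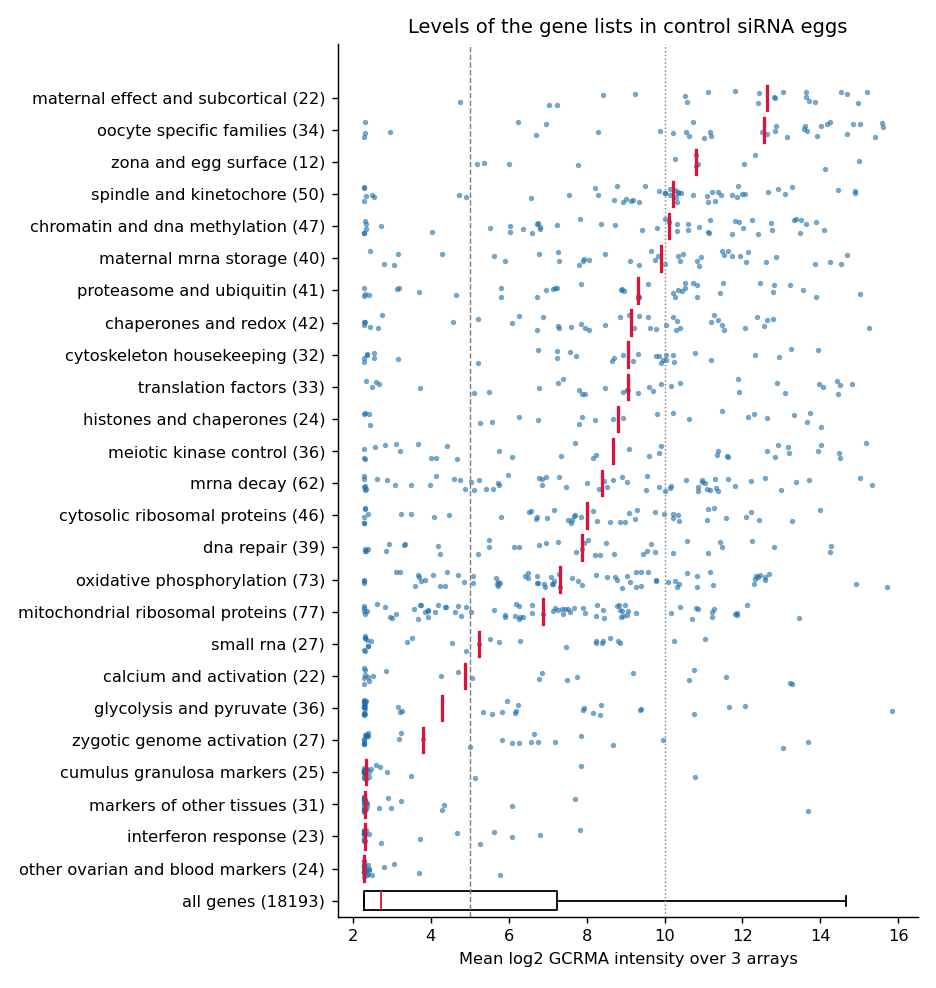
Mean log2 intensity over the 3 arrays (x axis) of each member of the 25 gene lists (rows, number of genes in brackets), with the list median in red, lines at log2 5 and 10, and a box of all 18193 genes (quartiles, whiskers to 1.5 times the box) at the bottom. Maternal-effect genes and oocyte-specific families have medians of 12.62 and 12.56, while markers of somatic cells crowd at the floor.

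Members of several gene families were read at different levels. The families were chosen after their values were seen and are a description. Ldhb averaged 15.84, with Ldha and the sperm form Ldhc at 2.32 and 3.22. Camk2g, the calcium and calmodulin-dependent kinase gene, averaged 10.76 ± 1.02 (SD, n = 3), with Camk2a, Camk2b and Camk2d at 2.41 or less. Wee2 averaged 14.03 against 4.41 for Wee1 and 8.17 for Pkmyt1. The Aurora kinases averaged 12.85 for Aurkc, 9.85 for Aurka and 2.83 for Aurkb. Ccna2 averaged 11.37 and Ccna1 2.29. Tet3, the oxidase of methylated cytosine in the egg, averaged 10.11, Tet1 6.72 and Tet2 2.29. The Argonautes had 2 members at a like level, Ago3 at 8.80 and Ago2 at 8.42, with Ago1 at 2.32 and Ago4 at 2.36. In the deadenylases both members were read, at 15.33 for Cnot7 and 11.16 for Cnot8, and at 13.72 for Cnot6l and 8.46 for Cnot6. Each value depends on its own probe set, so a low one does not show that the relative is missing.

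The pools differed from each other by more than 2-fold for a good part of the transcripts. Among the 6331 genes above the floor on all 3 arrays, 1692 (26.7%) had a range, the highest minus the lowest array, over 1. A range over 2 was found for 218 and over 3 for 29, and the median SD was 0.35. The spread was smallest at the top. The median SD was 0.18 for the 381 genes with a mean of 13 or more, of which 5.25% had a range over 1, and 0.40 for the 1925 with a mean from 7 to 9, of which 34.1% did. Replicate 1 set much of this spread. It lay over 1 above both other arrays for 381 genes and below both for 109, against 12 and 106 for replicate 2 and 160 and 51 for replicate 3. Without replicate 1, 499 genes had a range over 1, against 1208 without replicate 2 and 986 without replicate 3, where a range over 2 arrays is smaller by construction.

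The genes with the largest ranges were mostly high on replicate 3. Elp2, a subunit of the Elongator complex that modifies transfer RNA, read 7.40, 7.66 and 11.63, the widest span of any gene above the floor on all 3. The translation factor Eif4h read 5.17, 5.92 and 9.28, the ribosomal protein gene Rps4x 5.52, 6.26 and 9.19, the mitochondrial malate dehydrogenase Mdh2 6.05, 6.47 and 9.63, and the squalene synthase Fdft1 7.84, 8.26 and 11.35. In these genes the first pair of arrays lay within 1 of each other and replicate 3 stood apart. Others had 3 separate levels, such as Hint1, a purine phosphoramidase (8.12, 9.37 and 11.94), the centrin Cetn2 (6.06, 8.01 and 9.62), the complex I subunit Ndufc2 (6.69, 7.81 and 10.22) and the copper chaperone Cox17 (7.83, 9.95 and 11.19). Paip2, an inhibitor of poly(A)-binding protein, read 6.85, 7.98 and 10.37, the tubulin gene Tubb2b 7.36, 7.97 and 10.75, and the linker histone H1f2 5.04, 6.52 and 8.70.

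Fewer of the widest spans were high on replicate 1. Adamtsl1, a secreted ADAMTS-like protein, read 9.95, 6.58 and 7.50, the disulfide isomerase Pdia3 9.60, 6.84 and 6.36, Bcl2l13, a mitophagy receptor, 9.71, 6.41 and 8.34, and Rasa4, a Ras GTPase activator, 9.09, 5.92 and 7.82. Samd1 (8.91, 6.04 and 6.03), the peptidase Thop1 (8.07, 5.44 and 5.44) and the SUMO protease Senp1 (11.20, 8.61 and 8.61) were almost identical on replicates 2 and 3. On replicate 2 the maternal-effect enzyme Padi6 was low, with 11.12, 9.31 and 11.31, as was Arhgap28, a GTPase activator (8.84, 5.85 and 8.30). The long noncoding RNA Tug1 (7.90, 9.66 and 8.34) and Vps41, of endosome fusion (7.88, 9.70 and 8.43), were highest there. On replicate 3 Cd55, the complement inhibitor, was low at 13.34, 13.33 and 11.57, as were Osgepl1 (10.17, 10.05 and 7.71) and Rfx4 (8.04, 8.47 and 5.39).

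Some genes were at the floor on 1 pool only, 110 on replicate 1, 140 on replicate 2 and 61 on replicate 3. The brightest of them were, for replicate 1, the proton-pump subunit Atp6v1d (4.99, 6.68 and 8.09) and the heat-shock gene Hspa1a (4.80, 6.35 and 7.63). For replicate 2 they were Mfap2 (9.31, 4.73 and 6.60) and Triobp (8.25, 4.93 and 6.61), and for replicate 3 Ceacam10 (7.61, 7.35 and 4.91) and Atf7ip2 (6.70, 6.63 and 4.98). At the other extreme, bright genes with the smallest ranges included Ints5 of the Integrator complex (11.95, 11.95 and 11.94), Ggct (15.38, 15.40 and 15.40), the microtubule-tip protein Clasp2 (11.32, 11.32 and 11.30), the calcium pump Atp2b1 (11.59, 11.56 and 11.57) and Nlrp4a. Each had a range of at most 0.034.

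The spread was unequal among lists. A range over 1 was found for 18 of 35 cytosolic ribosomal protein genes (51.4%) and 12 of 26 translation factors (46.2%). The same held for 14 of 33 proteasome and ubiquitin genes (42.4%) and 10 of 24 cytoskeletal and housekeeping genes (41.7%). It held also for 22 of 55 oxidative phosphorylation genes (40%) and 4 of 10 calcium and activation genes (40%), beside 26.7% over all genes. Such a range was found for 3 of 20 histone and histone chaperone genes (15%) and 2 of 11 small-RNA genes (18.2%). Mitochondrial ribosomal protein genes had it in 10 of 50 (20%). The lists were not matched for level, and the spread differed by level. Over all genes, 1422 of 6331 (22.5%) were highest on replicate 3 and lowest on replicate 1. That order was seen for 27 of 55 oxidative phosphorylation genes and 15 of 35 cytosolic ribosomal protein genes. Replicate 3 was above replicate 1 for 39 of the 55, with a median difference of 0.68, and for 26 of the 35, with a median of 0.50, while the median over all genes was -0.01. Between replicates 2 and 3 alone, 31.4% of the ribosomal protein genes and 12.7% of the oxidative phosphorylation genes differed by over 1, beside 7.6% of all genes.

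Meiotic kinase regulators went the other way between the same pools, as did genes of embryonic genome activation. Over all genes, 2650 of 6331 (41.9%) were highest on replicate 1, and among the kinase regulators it was 16 of 24. It was also 7 of 11 for genome activation, 7 of 11 for small-RNA genes and 6 of 10 for calcium and activation genes. Replicate 3 was above replicate 1 for 6 of the 24 regulators, with a median difference of -0.37. For genome activation it was 4 of 11, with a median of -0.46. Mos, the kinase that sets up the metaphase arrest, read 14.22, 12.35 and 12.96. For the egg coat and surface genes replicate 3 was above replicate 2 in 10 of 10, with a median difference of 0.29, beside 3680 of all 6331 genes and a median of 0.09. In Oosp1, Oosp3 and Itgb1 that difference was under 0.1. The 18S probe sets and the 3′ sets of actin and Gapdh were highest on replicate 1 as well, and their part in these differences was not tested.

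**Figure D5:**
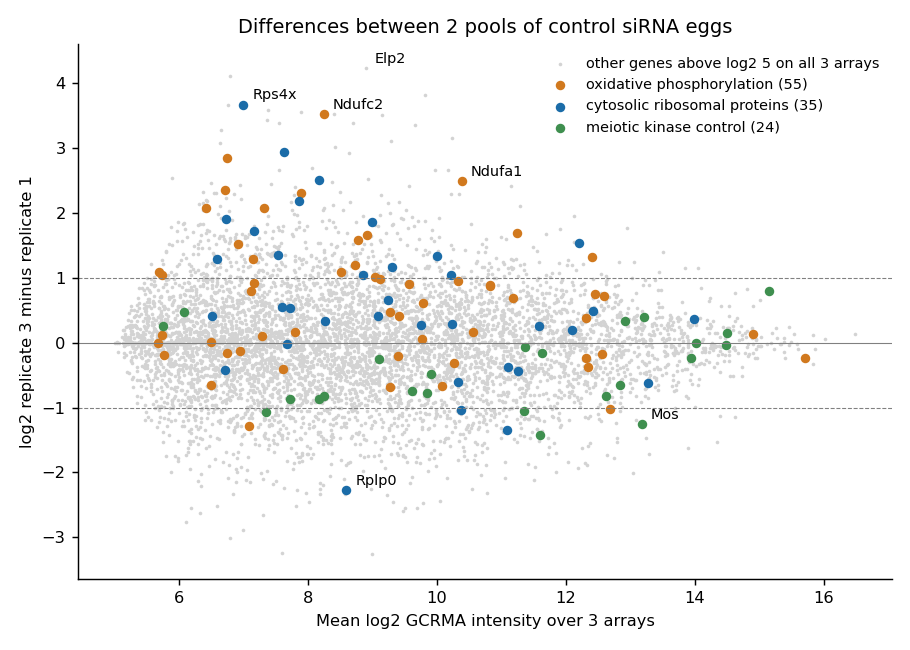
Log2 intensity on replicate 3 minus replicate 1 (y axis) against the mean of the 3 arrays (x axis) for the 6331 genes above log2 5 on all 3, with dashed lines at differences of 1 and -1. Oxidative phosphorylation genes (orange) and cytosolic ribosomal protein genes (blue) lie mostly above 0, with medians of 0.68 and 0.50, and meiotic kinase regulators (green) mostly below, with a median of -0.37.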

How the data were processed

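RNA of 3 pools of 30 control siRNA eggs was read on 1 array each. The authors deposited 1 linear intensity per probe set and array, made with GCRMA, per the submitters' processing notes. GCRMA (version not given in the sources used here) subtracts a background predicted from the probes' bases, brings the arrays to a common distribution and combines the probes of a set. Its values are relative within an array, so mRNA per egg was not measured, and dim probe sets collapse to a floor whose lowest intensity was 4.9 units. Between 54.3% and 56.4% of probe sets were at or under 5 units. No read depth applies, and the number of arrays limits precision.

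The deposited intensities were taken to log2 with Python 3.11.15, numpy 2.4.6 and pandas 2.3.3. Array controls (64 probe sets), 932 probe sets with several symbols and 9160 without a name were left out. Names came from the platform annotation, with 34754 of 34958 probe sets matched by Entrez number in the RefSeq table of GRCm38.p6 and 0 symbols changed. Each gene is its probe set with the highest mean log2 over the 3 arrays. No test was made, and errors are SD over 3 arrays. The thresholds are log2 5, log2 10 and a range of 1.

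Genes named were the 30 brightest, Dcp1a and Dcp2, up to 6 highest and 3 lowest of each list, the 20 with the largest range, the 10 bright genes with the smallest, for each array the 5 farthest above and the 5 farthest below both others, and the 3 brightest at the floor there only, with clone-style symbols counted but not described. For brevity not each of these is printed. Egg and cell type markers, gene families, Cdk1, Bub1, the genes of the promoter display and the labels of the plots were named outside this rule. Of these, the families, Cdk1, Bub1, the promoter display and the plots' labels were chosen after values were seen. The sample group, the genes and the lists were chosen with earlier results of these data known. Alternatives were another floor, the median over a gene's probe sets, leaving out x_at and s_at probe sets, median centring, quantile normalization and leaving out each replicate.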

Additional observations from a re-analysis of the deposited data

Results flagged for a closer look

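Signal was also present in probe sets that no gene of the report uses. Of 9160 probe sets without a gene name, 104 were above log2 10 on all 3 arrays and 491 above log2 5, the brightest with a mean of 15.02. Of 932 probe sets annotated to several genes, 108 were above log2 10 on all 3 arrays, the brightest with a mean of 15.96. These signals are not part of the order of genes, and which genes they belong to was not analysed here.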

How the results depend on the processing

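With the median over a gene's probe sets, 732 genes were above log2 10 on all 3 arrays against 1717, the 100 brightest held 34.7% of the signal against 24.2%, 1068 genes had a range over 1 against 1692, and 43 of the 100 brightest were shared. Without x_at and s_at probe sets that share was 26.1%, with 58 of the 100 shared. Leaving out 1 replicate gave 411 to 462 genes above log2 5 on some arrays only (645 with all 3), 499 to 1208 with a range over 1, a median SD of 0.23 to 0.32 (0.35 with all 3) and a lowest r between arrays of 0.9445 to 0.9725. Fewer arrays lower the first 3 of these by construction. It gave 6393 to 6471 genes above log2 5, 1790 to 1826 bright, 11260 to 11384 at the floor, 23.7% to 24.8% of the signal in the 100 brightest and 92 to 97 of them shared. With log2 6 as the floor, 5359 genes were above it on all 3 arrays. Of 25 lists, 20 exceeded the share of all genes with the median over probe sets and 21 under every other alternative run. The number of list members above the floor fell by over 1.5 times with that median for histones (12 against 20), calcium and activation (5 against 10), cumulus markers (1 against 2) and interferon response (1 against 5), and with log2 6 for interferon response (2) and other ovarian and blood markers (0 against 1). List medians moved by more than the spread among replicates for 22 of 25 with the median over probe sets and for 15 of 25 without x_at and s_at sets. No paired analysis was possible because 1 group is described and its results come from no test. Weak probe sets sit at the floor, so their order and folds cannot be read.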

Other observations

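Genes above the floor were spread over the chromosomes. Of the genes on an autosome, between 29.3% (chromosome 7) and 39.5% (chromosome 18) were above log2 5 on all 3 arrays, beside 32.4% on the X chromosome and 0 of 9 on the Y chromosome. Bright genes were 6.65% of those on the X chromosome, beside 6.58% to 12.2% on the autosomes. By RefSeq class, 6198 of 16465 protein-coding genes (37.6%) and 91 of 1355 long noncoding RNA genes (6.72%) were above the floor, and 22 of the noncoding genes were bright.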
